A study of Mus musculus with 12 samples.

Results

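The 36 genes described here encode the contractile apparatus of striated skeletal muscle, its excitation machinery and the transcription factors of the myogenic lineage. They were taken from a table of 23406 genes by name, from a list drawn up with earlier results of these data known. The material was mammospheres at passage 2, which are clusters that mammary cells grow into when kept in suspension, and total RNA was sequenced. The 12 libraries form 4 groups of 3, all on the C57BL/6J strain: wild-type (WT) mice of 2 months, WT mice of 12 months, and p66-/- mice lacking p66Shc (KO) at each of those ages. No treatment is named in the labels. p66Shc, the longest of the Shc1 proteins, is an adaptor known from work on oxidative stress and lifespan. The design text names 3 young and 3 aged mice and the labels do not tie a library to 1 animal, so the p-values below measure the spread between libraries.

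In skeletal muscle, bundles of myosin (thick filaments) pull on bundles of actin (thin filaments) within a repeating unit, the sarcomere. Calcium binds troponin on the thin filament and so allows the pull, after a motor nerve has opened acetylcholine receptors on the fibre. Many of these proteins come in isoforms: embryonic and neonatal ones in newly formed or regenerating fibres, and slow or fast adult ones later. The factors Myf5 and Myod1 commit cells to the lineage, Myog drives their differentiation, and Pax7 marks the resident stem cells called satellite cells. Skeletal muscle is not a tissue of the mammary epithelium.

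Levels are normalised read counts (CPM, the reads of a gene relative to the size of its library, scaled by TMM) and are given for replicates 1, 2 and 3 in that order. Changes are log2 differences of log2(CPM + 0.5) with their standard error (SE) from limma, which understate the change of low genes. A gene was called at a Benjamini-Hochberg adjusted p under 0.05 over the 13961 genes whose mean reached 0.5 CPM. Of the 36 members, 33 passed that filter, and Myh2, Myod1 and Pax7 did not. Myh7 passed it only through 12-month KO, with a mean of 1.78 CPM there and 0.198 to 0.674 CPM in the other groups. Libraries held 31845169 to 109079737 reads in genes. A count of 3 reads, the floor used here, stands for 0.0290 to 0.0859 CPM. Shc1, whose count sums all its isoforms, was 266 to 311 CPM in WT at 2 months, 203 to 219.6 in WT at 12 months, 208 to 209 in KO at 2 months and 162 to 178 in KO at 12 months, and such a count cannot isolate p66Shc.

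Skeletal muscle transcripts were highest in the spheres of young WT mice and lowest in those of aged WT mice for most members. The order 2-month WT, 12-month KO, 2-month KO, 12-month WT, from the highest mean to the lowest, held for 24 of the 33 tested members. Summed over all 36 members the level was 1728 to 2068 CPM in WT at 2 months, 345 to 369.9 in WT at 12 months, 533 to 563 in KO at 2 months and 1095 to 2020.4 in KO at 12 months. Ttn alone made up much of this, and without it the sums were 1066 to 1350 CPM, 207 to 217 CPM, 321 to 349 CPM and 363 to 632 CPM in the same order of groups. The KO groups did not overlap in either sum. In bulk RNA, fewer muscle-like cells and less of these transcripts per cell cannot be told apart.

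**Figure D1:**
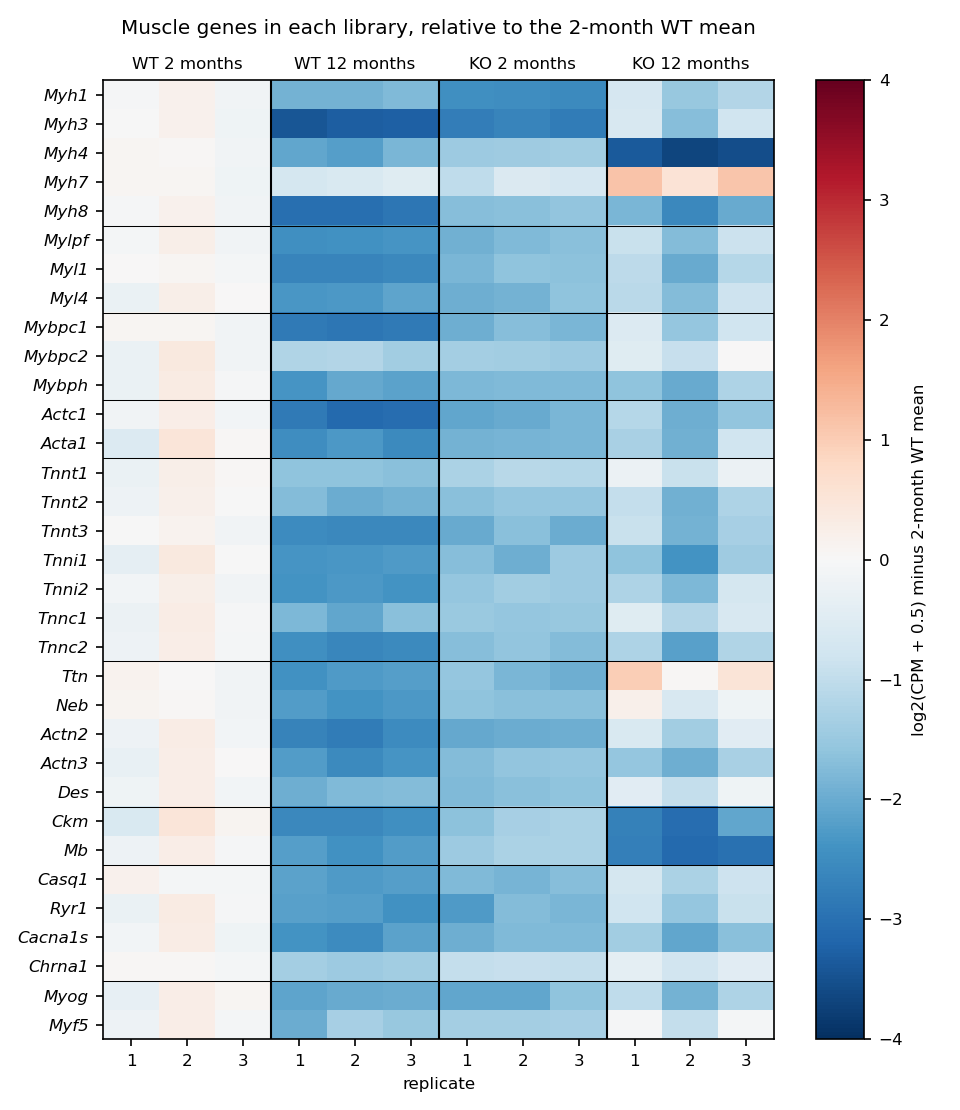
Level of each tested member in each of the 12 libraries, as log2(CPM + 0.5) minus the member's mean in 2-month WT (colour scale, blue lower, red higher), with members as rows grouped by role and libraries as columns grouped by genotype and age. By group mean 2-month WT is highest for 31 of 33 members and 12-month WT is lowest for 27, and the column of replicate 2 of 12-month KO is the lowest of its 3 libraries for all 33. The ranks of the group means were not counted over all genes.

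In WT all 33 tested members were lower at 12 than at 2 months, with log2 changes from -3.33 to -0.59 and a median of -2.29. Over all 13961 genes 35.6% were called lower in that comparison, 58.0% were called in either direction, and the median over all genes was -0.08. In KO spheres the same age comparison called 19 members higher, 4 lower and 10 in neither direction, with a median of 0.54. There 32.9% of all genes were higher, 34.2% lower and 67.0% called either way, with a median of -0.02. At 2 months all 33 were lower in KO than in WT, with a median of -1.68 and a range of -2.73 to -0.76, where 14.2% of all genes were lower and 16.1% were called either way. At 12 months 29 members were higher in KO, 2 were lower and 2 were not called, with a median of 1.10. In that comparison 31.3% of all genes were higher, 38.9% lower and 70.2% were called either way. The age comparisons and genotype comparisons share groups, so they are not independent of one another. The smallest falls, with age in WT (-0.59) and in KO at 2 months (-0.76), were those of Myh7, whose low level understates them.

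The difference between the age change in KO and that in WT, the interaction, was positive and called for 32 of 33 members, with a median of 2.61 on the log2 scale. Positive calls made up 31.4% of all genes and negative ones 26.2% and calls either way 57.7%. The exception was Myh4, an adult fast myosin, with an interaction of -0.06 ± 0.17 SE. The largest interaction was that of Myh3, the embryonic myosin, at 5.01 ± 0.29 SE.

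**Figure D2:**
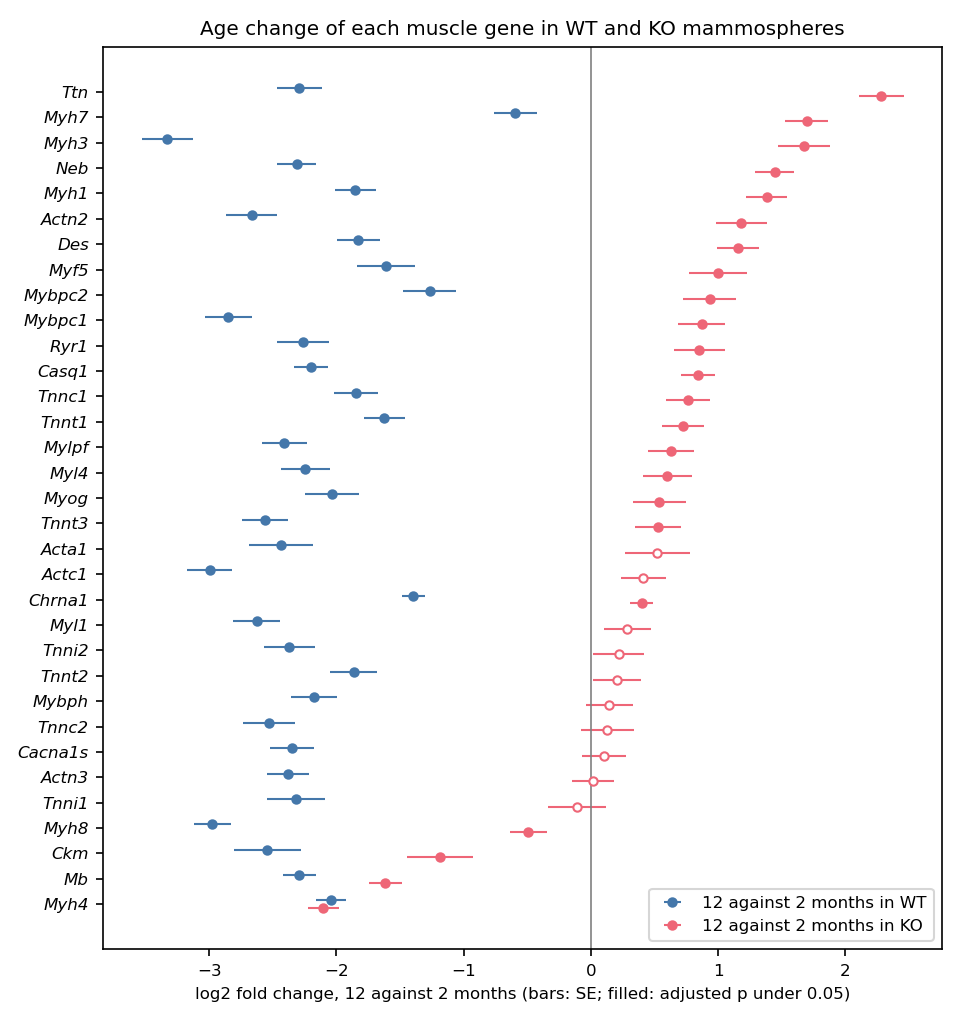
Log2 fold change of 12 against 2 months (horizontal axis) for each of the 33 tested members (rows, sorted by the change in KO), with WT in blue, KO in red, bars for the SE from limma, and filled points for an adjusted p under 0.05. All 33 WT points lie below 0, and the KO points run from -2.102 for Myh4 to 2.29 for Ttn.

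The 12-month KO libraries differed among themselves. Replicate 2 was the lowest of the 3 for all 33 tested members, at a median 1.604-fold below the other pair, while over all 13961 genes it was lowest for 26.4% and its median offset was 0.01 on the log2 scale. In 2-month WT, replicate 2 was the highest for 28 of 33 members, and the share of all genes was not counted. Its median offset from the other pair was 0.37 on the log2 scale over the members and 0.01 over all genes. Without replicate 2 of 12-month KO, the age comparison in KO called 29 members, 25 higher and 4 lower, in place of 23, and the median change was 0.81. The share of all genes called in that fit is not given here.

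Markers of other cell types also moved across the groups, and their part in the results on muscle genes was not tested. The 7 luminal epithelial markers (such as Krt8, Krt18 and Epcam) summed to 278 to 345 CPM in WT at 2 months, 3328 to 3463 in WT at 12 months, 399.7 to 467 in KO at 2 months and 422 to 441 in KO at 12 months. The 6 basal and myoepithelial markers (such as Krt5 and Krt14) summed to 26.8 to 40.6 CPM, 237 to 256 CPM, 45.0 to 52.8 CPM and 55.2 to 63.6 CPM in the same order. The 9 smooth muscle and contractile markers include Acta2 and Myh11. They summed to 87.9 to 101.6 CPM, 168 to 180.1 CPM, 80.3 to 87.8 CPM and 85.2 to 87.0 CPM. These 3 sums were highest in 12-month WT, where the skeletal members were lowest. The 6 fibroblast markers summed to 9408 to 9864 CPM, 5994 to 6305 CPM, 8921 to 9869 CPM and 8246 to 9328 CPM, lowest in 12-month WT. The 4 endothelial markers summed to 82.7 to 89.6 CPM, 85.0 to 95.3 CPM, 55.0 to 59.4 CPM and 205 to 217 CPM. The 5 pericyte markers summed to 108 to 155 CPM, 121 to 123 CPM, 151 to 170.0 CPM and 101 to 115 CPM. The pericyte markers did not move as 1 group: with age in KO Rgs5, Kcnj8, Abcc9 and Notch3 rose and Cspg4, the most abundant in every group, fell, with a median of 1.12, and at 12 months Rgs5, Kcnj8 and Abcc9 were higher in KO than in WT and 2 were lower. The smooth muscle and fibroblast lists were split as well. With age in KO 5 of the former rose and 2 fell, and 3 of the latter rose and 3 fell. Over all genes 32.9% rose and 34.2% fell in that comparison. At 12 months 1 of the former was higher in KO and 5 lower, and 4 of the latter were higher and 2 lower. There 31.3% of all genes were higher and 38.9% lower. The basal list was split at 2 months: Krt14 and Lamb3 were higher in KO than in WT, 3 were lower and Krt17 was not called. Its median change was -0.07. Of the 7 luminal markers 4 were higher in KO at that age and 1 was lower. Over all genes 1.86% were higher and 14.2% lower in that comparison. The 4 leukocyte markers summed to 91.2 to 114 CPM, 71.5 to 76.2 CPM, 80.6 to 95.6 CPM and 33.5 to 53.6 CPM. Only 2 of them, Cd68 and Ptprc, passed the filter. At 12 months Cd68 was lower in KO than in WT and Ptprc was not called.

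Markers of heart muscle, which shares several sarcomere genes with embryonic skeletal muscle, were low. Their 10 genes summed to 1.56 to 3.52 CPM per library, and 1 of them, Tbx5, a transcription factor of heart and forelimb, passed the filter, at 23 to 175 reads. Tbx5 fell with age in WT (-0.84), was lower in KO at 2 months (-0.52) and higher in KO at 12 months (0.61), with an interaction of 1.12 and no call with age in KO (0.28). Myh6, the atrial and adult mouse heart myosin, had 0 reads in 10 of 12 libraries and at most 2, and Nkx2-5, a heart transcription factor, had 0 reads in 11. Of the rest, Tnni3 had 6 to 65 reads per library, Hand2 2 to 44, Nppb 0 to 33 and Myl2 7 to 31. Gata4 had 2 to 10, Nppa 0 to 9 and Myl7 0 to 1. Myog, specific to skeletal muscle lineage, was present in every library.

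Myosin heavy chains are the motors of the thick filament. Myh3 (embryonic), Myh2, Myh1, Myh4 (adult fast) and Myh8 (neonatal) lie in this order along 1 cluster on chromosome 11, and Myh7 (slow, also cardiac) lies on chromosome 14. The 200 bases upstream of the start sites of 4 of them are printed, since these neighbours moved apart with age in KO. They come from RefSeq on GRCm38.p6, which is mm10, all on the plus strand: chr11:67078100-67078299 for Myh3, chr11:67199902-67200101 for Myh1, chr11:67237612-67237811 for Myh4 and chr11:67276924-67277123 for Myh8. Capitals mark matches to the E-box CAGCTG, the MEF2-type motif CTANNNNTA or its reverse complement TANNNNTAG, the E-box CAGGTG or its reverse complement, and the CArG box, which serum response factor binds.
Myh3: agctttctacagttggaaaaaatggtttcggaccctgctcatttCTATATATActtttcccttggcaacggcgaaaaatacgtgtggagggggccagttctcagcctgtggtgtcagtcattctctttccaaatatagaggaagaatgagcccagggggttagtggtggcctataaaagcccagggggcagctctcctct
Myh8: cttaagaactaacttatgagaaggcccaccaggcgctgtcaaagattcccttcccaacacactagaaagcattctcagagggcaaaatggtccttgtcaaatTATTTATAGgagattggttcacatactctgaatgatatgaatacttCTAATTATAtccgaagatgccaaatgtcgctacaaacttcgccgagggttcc
Myh1: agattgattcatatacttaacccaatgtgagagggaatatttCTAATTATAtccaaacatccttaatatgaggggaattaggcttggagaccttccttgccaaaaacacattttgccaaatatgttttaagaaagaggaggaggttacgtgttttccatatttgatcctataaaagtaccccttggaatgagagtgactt
Myh4: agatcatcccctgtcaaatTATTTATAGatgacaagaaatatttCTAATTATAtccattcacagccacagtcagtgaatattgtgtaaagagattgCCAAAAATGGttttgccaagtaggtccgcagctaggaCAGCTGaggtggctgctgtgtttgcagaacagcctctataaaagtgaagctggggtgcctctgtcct
All 4 windows hold a MEF2-type match, at base -156 (Myh3), -158 (Myh1), -181 and -156 (Myh4), and -98 and -52 (Myh8), giving the first base of each match counted back from the start site. Among these 4, the window of Myh4 alone holds CAGCTG, at -67, and a CArG box, at -104. The letters show what is in these windows and nothing of what binds there.

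Myh3, the embryonic isoform (chr11:67078300-67102291, plus strand), was 60.4, 70.2 and 55.2 CPM in WT at 2 months, 5.29, 5.89 and 5.896 in WT at 12 months, 8.71, 9.39 and 8.43 in KO at 2 months and 39.1, 18.4 and 35.01 in KO at 12 months. The 3 libraries of 2-month WT stood above all others, and those of 12-month KO stood above both remaining groups. It fell with age in WT (-3.33 ± 0.20 SE, limma adjusted p = 1.03e-08) and rose with age in KO (1.68 ± 0.20 SE, adjusted p = 8.08e-06). At 12 months KO exceeded WT by 2.27 ± 0.20 SE on the log2 scale (limma adjusted p = 3.68e-07).

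Myh8, the neonatal isoform (chr11:67277124-67308633, plus strand), was 144, 171 and 137 CPM in WT at 2 months, 18.1, 18.1 and 19.8 in WT at 12 months, 45.8, 46.4 and 49.99 in KO at 2 months and 41.99, 24.8 and 36.3 in KO at 12 months. Like Myh3 it was highest in 2-month WT without overlap. In KO, however, it fell with age, by 0.49 ± 0.15 SE (limma adjusted p = 0.00911), with all 3 libraries of 12-month KO below the lowest of 2-month KO. The Myh8 fall was smaller without replicate 2 of 12-month KO, at -0.27 (limma adjusted p = 0.0248). In WT it fell by 2.97 ± 0.15 SE (limma adjusted p = 1.15e-09).

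Myh1, an adult fast isoform (type IIx, chr11:67200114-67224575, plus strand), was 40.001, 46.2 and 37.3 CPM in WT at 2 months, 10.8, 10.6 and 11.7 in WT at 12 months, 7.11, 6.87 and 6.58 in KO at 2 months and 25.8, 13.9 and 18.1 in KO at 12 months. It was lowest in 2-month KO, below 12-month WT, and it rose with age in KO by 1.38 ± 0.16 SE (limma adjusted p = 5.8e-06). Myh4, the fastest adult isoform (type IIb, chr11:67237812-67260447, plus strand), was 9.81, 9.64 and 8.43 CPM in WT at 2 months, 1.79, 1.64 and 2.23 in WT at 12 months, 3.11, 3.13 and 3.19 in KO at 2 months and 0.459, 0.260 and 0.339 in KO at 12 months. All 3 libraries of 12-month KO lay below every other library. Myh4 fell with age in both genotypes, by 2.04 ± 0.12 SE in WT (limma adjusted p = 6.84e-09) and by 2.102 ± 0.12 SE in KO (adjusted p = 5.57e-09). The mean of 12-month KO was 3.79% of that of 2-month WT for Myh4, against 49.8% for Myh3 and 46.8% for Myh1. The interaction of Myh4 depended on the scale, being -0.06 with a pseudocount of 0.5 and not called, and called negative with a pseudocount of 0.1 (-0.62), edgeR (-0.95) or DESeq2 (-0.91). The adjusted p ranged from 0.00332 (DESeq2) to 0.0375 (limma, pseudocount 0.1) in these 3.

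Myh7, the slow isoform (chr14:54970688-54994549, minus strand), was 0.736, 0.738 and 0.547 CPM in WT at 2 months, 0.222, 0.265 and 0.343 in WT at 12 months, 0.0810, 0.281 and 0.231 in KO at 2 months and 2.06, 1.23 and 2.05 in KO at 12 months. It was highest in 12-month KO without overlap, in contrast with the other heavy chains. It passed the filter only through that group, so its comparisons with 12-month KO carry no weight as tests. The log2 change with age was 1.70 ± 0.17 SE in KO and -0.59 ± 0.17 SE in WT (limma adjusted p = 0.00821 in WT). At this level the pseudocount understates such changes, and by group means 2-month WT was 2.43-fold above 12-month WT. Myh2, the IIa isoform, had 3 to 19 reads per library, was 0.0720 to 0.283 CPM and was below the filter. Stretches of near-identical sequence join the heavy chain genes, and how multiply mapped reads were counted is not given in the sources used here, so the split of reads between neighbours is uncertain.

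**Figure D3:**
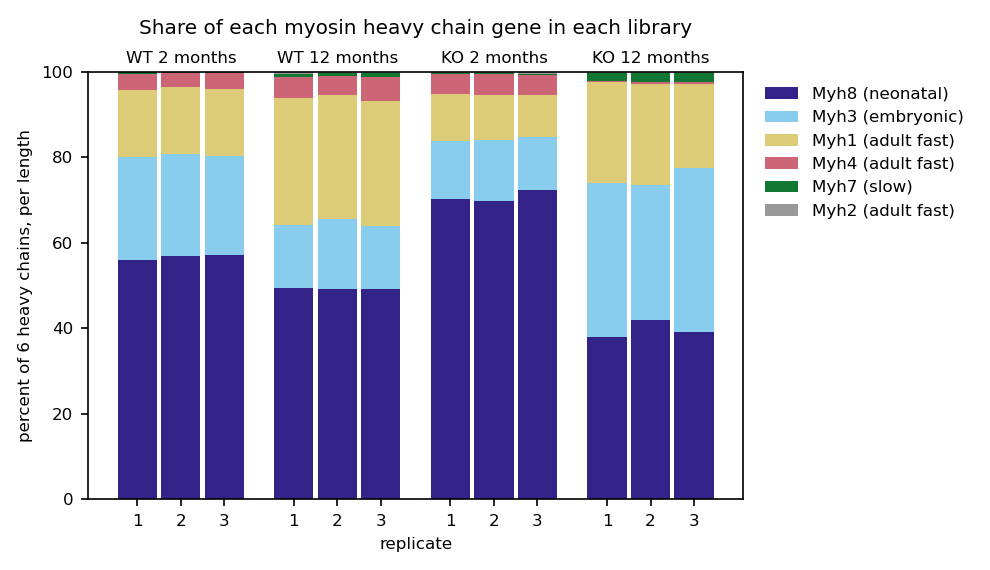
Share, in percent, of each of the 6 skeletal myosin heavy chains in their summed level per kilobase of transcript, with a stacked bar for each library, grouped by genotype and age. Myh8 has the largest mean share in every group, Myh3 has its largest in 12-month KO (35.4%), and Myh4 its smallest there (0.415%).

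Divided by transcript length and expressed as a share of the summed heavy chains, Myh8 took 56.7% ± 0.539 (SD, n = 3) in WT at 2 months, 49.2% ± 0.117 in WT at 12 months, 70.8% ± 1.44 in KO at 2 months and 39.6% ± 1.98 in KO at 12 months. Myh3 took 23.7% ± 0.307, 15.3% ± 0.8603, 13.5% ± 0.974 and 35.4% ± 3.39 in that order, and Myh1 15.7% ± 0.0763, 29.4% ± 0.337, 10.4% ± 0.687 and 22.3% ± 2.29. The share of Myh4 was 0.415% ± 0.0385 in 12-month KO and 3.59% ± 0.305 to 5.07% ± 0.563 as group means elsewhere. The developmental isoforms Myh3 and Myh8 together made up 80.4%, 64.5%, 84.3% and 75.04% in that order. The difference of 12 from 2 months was -15.9 percentage points in WT and -9.23 in KO, and that of KO from WT was 3.85 points at 2 months and 10.5 points at 12 months. None of the 4 comparisons overlapped between groups, and each gave the smallest p that 3 against 3 allows (exact two-sided permutation test, p = 0.1, adjusted p = 0.167 over 25 tests of isoform pairs), so that this test cannot pass 0.05.

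Log2 ratios within a library do not depend on scaling between libraries. Of Myh3 to Myh4, per length, the ratio was 2.73 in WT at 2 months, 1.5994 in WT at 12 months, 1.49 in KO at 2 months and 6.41 in KO at 12 months. Of Myh3 to Myh8 it was -1.26, -1.69, -2.39 and -0.17. These 2 ratios were chosen after their values were seen and carry no test.

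The light chains, which clasp the neck of the myosin head, followed the common order. Mylpf, the fast regulatory light chain (chr7:127211608-127214287, plus strand), was 73.2, 90.9 and 71.2 CPM in WT at 2 months, 13.7, 14.3 and 14.8 in WT at 12 months, 20.1, 22.5 and 24.1 in KO at 2 months and 41.6, 23.3 and 42.5 in KO at 12 months. The 2-month WT libraries lay above all others and the 12-month WT libraries below, and replicate 2 of 12-month KO sat among the 2-month KO libraries. Per kilobase it was the most abundant member in every group, at 102.4 CPM per kilobase in WT at 2 months, 18.6 in WT at 12 months, 29.02 in KO at 2 months and 46.7 in KO at 12 months. It fell by 2.41 ± 0.18 SE with age in WT (limma adjusted p = 7.25e-08) and rose by 0.63 ± 0.18 SE in KO (adjusted p = 0.00719).

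Myl1, the fast essential light chain (chr1:66924296-66945056, minus strand), was 30.2, 31.4 and 28.6 CPM in WT at 2 months, 4.37, 4.35 and 4.61 in WT at 12 months, 8.14, 9.61 and 9.31 in KO at 2 months and 14.2, 7.11 and 13.4 in KO at 12 months, and its age change in KO was not called (0.29 ± 0.19 SE, limma adjusted p = 0.186). As for Mylpf, the WT groups were the highest and the lowest without overlap, and the low replicate 2 of 12-month KO fell below all of 2-month KO. Leaving out replicate 2 of 12-month KO gave 0.59 ± 0.09 SE (limma adjusted p = 0.000106). Myl4, the essential light chain of embryonic muscle and atrium (chr11:104550663-104587219, plus strand), was 36.4, 52.2 and 44.7 CPM in WT at 2 months, 8.36, 8.59 and 9.76 in WT at 12 months, 10.95, 11.5 and 14.01 in KO at 2 months and 20.4, 12.9 and 24.5 in KO at 12 months, and rose with age in KO by 0.60 ± 0.19 SE (limma adjusted p = 0.0136). The same replicate brought the KO ages to overlap for Myl4. The rise of Myl4 was not called without replicate 3 of 12-month KO (0.41, limma adjusted p = 0.0657) or without replicate 1 of 2-month KO (0.53, adjusted p = 0.0527). In CPM Myl4 exceeded Myl1 in every library, and the negative sign of their ratio per length comes from the lengths used (3273 and 1082 bases). The ratio of Myl4 to Myl1, log2 per length, was -1.05 in WT at 2 months, -0.60 in WT at 12 months, -1.17 in KO at 2 months and -0.85 in KO at 12 months. It was higher at 12 months in WT without overlap (exact permutation p = 0.1), whereas the libraries of the KO ages overlapped (exact p = 0.2, adjusted p = 0.294).

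The myosin-binding proteins, which tie thick filaments together, all fell with age in WT. Mybpc1, the slow form (chr10:88518279-88605152, minus strand), was 77.1, 76.4 and 65.3 CPM in WT at 2 months, 9.85, 9.35 and 9.79 in WT at 12 months, 18.5, 21.8 and 20.3 in KO at 2 months and 49.9, 24.6 and 42.0 in KO at 12 months. Here the 4 groups were separate, with every 12-month KO library above every 2-month KO library. The fast form Mybpc2 (chr7:44501699-44524669, minus strand) was 3.65, 6.09 and 4.08 CPM in WT at 2 months, 1.65, 1.71 and 1.402 in WT at 12 months, 1.46, 1.43 and 1.31 in KO at 2 months and 3.06, 2.15 and 4.58 in KO at 12 months, and its lowest group was 2-month KO. The 12-month KO libraries lay above both low groups and overlapped those of 2-month WT. Both rose with age in KO, by 0.87 ± 0.18 SE and 0.94 ± 0.21 SE (limma adjusted p = 0.000979 and 0.00142). Mybph, a related protein (chr1:134193448-134201232, plus strand), was 9.47, 14.5 and 11.1 CPM in WT at 2 months, 1.86, 2.43 and 2.23 in WT at 12 months, 2.95, 3.04 and 3.06 in KO at 2 months and 3.42, 2.46 and 4.59 in KO at 12 months, and its age change in KO was not called (0.15 ± 0.18 SE, limma adjusted p = 0.492). The KO ages overlapped, between the high 2-month WT and the low 12-month WT libraries. The changes with age in WT were -2.85, -1.27 and -2.18 on the log2 scale.

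The thin filament is made of actin. Acta1, the adult skeletal form (chr8:123891758-123894775, minus strand), was 61.2, 126 and 92.7 CPM in WT at 2 months, 15.7, 17.9 and 14.9 in WT at 12 months, 23.6, 24.3 and 24.9 in KO at 2 months and 36.2, 23.3 and 51.05 in KO at 12 months. It came next to Mylpf per kilobase in every group. Replicate 1 of 2-month WT was well below replicate 2, yet above every library of the other groups. Actc1, the cardiac actin that embryonic skeletal muscle also makes (chr2:114047289-114052811, minus strand), was 17.8, 23.4 and 17.96 CPM in WT at 2 months, 2.35, 1.803 and 1.92 in WT at 12 months, 4.22, 4.51 and 5.19 in KO at 2 months and 8.59, 4.701 and 6.23 in KO at 12 months. For both actins 12-month WT was the lowest group without overlap, and the KO ages overlapped. Both fell with age in WT, Actc1 by 3.00 ± 0.18 SE (limma adjusted p = 7.23e-09) and Acta1 by 2.44 ± 0.25 SE (adjusted p = 2.09e-06). In KO neither age change was called with all libraries (0.41 ± 0.18 SE for Actc1 and 0.52 ± 0.25 SE for Acta1, limma adjusted p = 0.0529 and 0.0836). Without replicate 2 of 12-month KO both were called higher, at 0.61 ± 0.16 SE and 0.81 ± 0.23 SE (limma adjusted p = 0.00547 and 0.0079). Without replicate 1 of 2-month WT both were called at the same size (adjusted p = 0.047 for Actc1 and 0.0328 for Acta1), as was Actc1 without replicate 2 of that group (adjusted p = 0.0439).

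The ratio of Actc1 to Acta1, log2 per length, was -1.81, -2.46 and -2.39 in WT at 2 months, -2.77, -3.34 and -2.98 in WT at 12 months, -2.51, -2.46 and -2.29 in KO at 2 months and -2.10, -2.34 and -3.06 in KO at 12 months. The age difference of this ratio in WT was -0.81, with no overlap between the libraries (exact permutation p = 0.1, adjusted p = 0.167), and the libraries overlapped in the other 3 comparisons. The actins share long stretches of coding sequence, and the division of reads between them is uncertain for the same reason as for the heavy chains.

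Troponin is a complex of a calcium sensor (C), an inhibitor (I) and a tropomyosin-binding subunit (T). All 7 troponin genes fell with age in WT and all 7 were lower in KO than in WT at 2 months. With age in KO, 3 of the 7 rose, a share near the 32.9% of all genes called higher in that comparison, and 4 were not called. Tnnt3, the fast T subunit (chr7:142498836-142516009, plus strand), was 50.1, 55.9 and 45.9 CPM in WT at 2 months, 8.45, 7.96 and 8.01 in WT at 12 months, 12.03, 15.4 and 12.4 in KO at 2 months and 26.8, 13.4 and 19.9 in KO at 12 months. The 2-month WT libraries stood clear above, the 12-month WT libraries clear below. Tnnt2, the cardiac T subunit that embryonic skeletal muscle also uses (chr1:135836334-135852268, plus strand), was 28.8, 38.05 and 32.5 CPM in WT at 2 months, 9.63, 7.91 and 8.56 in WT at 12 months, 10.004, 11.03 and 11.1 in KO at 2 months and 16.8, 8.31 and 13.6 in KO at 12 months. Replicate 2 of 12-month KO lay within the 12-month WT range for Tnnt2 and within the 2-month KO range for Tnnt3. Tnnt3 rose with age in KO (0.53 ± 0.18 SE, limma adjusted p = 0.0212) and Tnnt2 did not pass (0.21 ± 0.19 SE, adjusted p = 0.348). The rise of Tnnt3 was not called without replicate 1 of 12-month KO (0.29, limma adjusted p = 0.107), or on leaving out replicate 1 (0.46, adjusted p = 0.0746) or 3 of 2-month KO (0.48, adjusted p = 0.0663), and Tnnt2 was called higher without replicate 2 of 12-month KO (0.48, adjusted p = 0.00561). The slow form Tnnt1 was 2.29 to 9.82 CPM over the libraries and rose with age in KO by 0.73 ± 0.16 SE (limma adjusted p = 0.00158).

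The ratio of Tnnt2 to Tnnt3, log2 per length, had age differences of opposite sign in WT and KO. It was -2.43, -2.18 and -2.12 in 2-month WT and -1.44, -1.63 and -1.53 in 12-month WT, a difference in means of 0.71. In KO it was -1.89, -2.11 and -1.79 at 2 months and -2.30, -2.31 and -2.17 at 12 months, a difference of -0.33. Groups overlapped in neither genotype (exact permutation p = 0.1 each, adjusted p = 0.167). Tnnt3 overlaps the table's gene Gm14492, which lies on the opposite strand and averaged 1.86 CPM.

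Tnni2, the fast inhibitory subunit (chr7:142442468-142444405, plus strand), was 20.8, 26.7 and 20.5 CPM in WT at 2 months, 3.86, 4.14 and 3.86 in WT at 12 months, 7.36, 8.33 and 7.87 in KO at 2 months and 9.36, 6.14 and 13.5 in KO at 12 months. Again 2-month WT was the highest and 12-month WT the lowest group without overlap. Tnni1, the slow one and the form of immature fibres (chr1:135799421-135810989, plus strand), was 23.1, 39.5 and 29.3 CPM in WT at 2 months, 5.46, 5.51 and 5.84 in WT at 12 months, 8.896, 7.38 and 10.7 in KO at 2 months and 9.51, 5.34 and 10.7 in KO at 12 months. The remaining 3 groups overlapped for Tnni1 in part, with replicate 2 of 12-month KO at the low end. Neither passed the test with age in KO (0.22 ± 0.20 SE and -0.11 ± 0.23 SE, limma adjusted p = 0.343 and 0.681). Tnni2 was called higher without replicate 2 of 12-month KO (0.49, limma adjusted p = 0.0114). At 12 months Tnni2 was higher in KO (1.13 ± 0.20 SE, limma adjusted p = 0.00021) and Tnni1 was not called (0.51 ± 0.23 SE, adjusted p = 0.0598). Tnni1 was called there without replicate 2 of 12-month KO (0.798, limma adjusted p = 0.00252) and without replicate 1 or 2 of 2-month WT (adjusted p = 0.0357 and 0.0408). The log2 ratio of Tnni1 to Tnni2 was -0.76 in 12-month WT and -1.44 in 12-month KO, without overlap (exact permutation p = 0.1).

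Tnnc2, the fast calcium sensor (chr2:164777162-164779734, minus strand), was 25.7, 35.6 and 28.2 CPM in WT at 2 months, 5.04, 4.42 and 4.67 in WT at 12 months, 8.71, 9.65 and 8.51 in KO at 2 months and 12.3, 6.14 and 12.5 in KO at 12 months. The KO ages overlapped for Tnnc2. Tnnc1, the slow and cardiac sensor (chr14:31208312-31211711, plus strand), was 14.1, 20.7 and 16.1 CPM in WT at 2 months, 4.43, 3.63 and 4.95 in WT at 12 months, 5.65, 5.38 and 5.503 in KO at 2 months and 11.9, 7.23 and 10.6 in KO at 12 months. For Tnnc1 they did not, and all 4 groups were separate. Tnnc1 rose with age in KO (0.76 ± 0.17 SE, limma adjusted p = 0.00153), whereas Tnnc2 was not called (0.13 ± 0.21 SE, adjusted p = 0.594). Without replicate 2 of 12-month KO Tnnc2 was called higher (0.45, limma adjusted p = 0.00703). The age difference in the log2 ratio of Tnnc1 to Tnnc2 was 0.69 in WT and 0.68 in KO, with no overlap between libraries in either (exact permutation p = 0.1 each).

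Titin and nebulin are giant proteins that set the length of the filaments. Ttn, which spans from the Z disc to the middle of the sarcomere (chr2:76703984-76982547, minus strand), was 778, 718 and 637 CPM in WT at 2 months, 133, 148 and 153 in WT at 12 months, 242, 199 and 184 in KO at 2 months and 1389, 731 and 1018 in KO at 12 months. Ttn and Myh7 were the members whose mean was highest in 12-month KO, and Myh7 passed the filter only through that group. Neb (chr2:52136647-52338798, minus strand) was 119, 114 and 99.7 CPM in WT at 2 months, 23.1, 20.7 and 21.98 in WT at 12 months, 36.02, 34.2 and 34.6 in KO at 2 months and 128, 70.5 and 97.9 in KO at 12 months, so that 12-month KO overlapped 2-month WT. For both genes the 12-month WT libraries were below all others, and the highest library was replicate 1 of 12-month KO. With age Ttn fell by 2.29 ± 0.18 SE in WT and rose by 2.29 ± 0.18 SE in KO (limma adjusted p = 1e-07 and 1.04e-07). Neb fell by 2.31 ± 0.15 SE in WT and rose by 1.45 ± 0.15 SE in KO (limma adjusted p = 2.14e-08 and 2.16e-06).

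Des, the intermediate filament that links Z discs (chr1:75360344-75367715, plus strand), was 42.99, 59.1 and 45.5 CPM in WT at 2 months, 12.1, 13.9 and 14.2 in WT at 12 months, 14.03, 15.01 and 15.6 in KO at 2 months and 35.3, 24.8 and 43.6 in KO at 12 months, and rose with age in KO by 1.16 ± 0.17 SE (limma adjusted p = 3.81e-05). The 12-month KO libraries reached into the range of 2-month WT, and the lower groups overlapped. Smooth muscle also makes Des. Actn2 and Actn3 cross-link actin at the Z disc, Actn3 in fast fibres. They were 1.54 to 16.8 CPM and 5.002 to 38.6 CPM over the libraries. Actn2 rose with age in KO (1.18 ± 0.20 SE, limma adjusted p = 0.000171) and Actn3 was not called (0.02 ± 0.16 SE, adjusted p = 0.924).

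**Figure D4:**
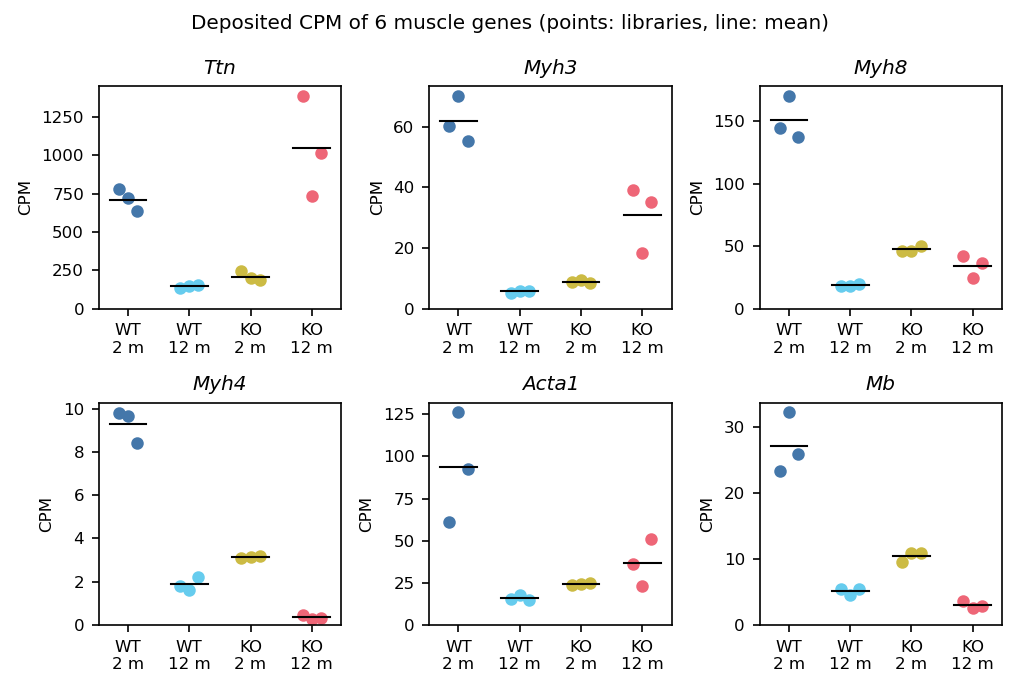
Level in CPM of 6 members, with a panel for each gene, a point for each library and a line for the mean of each group of 3 (axes start at 0). Every 12-month KO library lies above every 2-month KO library for Ttn and Myh3 and below for Myh8, Myh4 and Mb, and the 2 groups overlap for Acta1.

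The energy and oxygen genes did not follow the rise in aged KO. Ckm, muscle creatine kinase (chr7:19411094-19421583, plus strand), was 9.93, 21.8 and 16.4 CPM in WT at 2 months, 2.14, 2.12 and 2.38 in WT at 12 months, 4.51, 5.79 and 6.02 in KO at 2 months and 1.94, 1.39 and 3.28 in KO at 12 months. Mb, myoglobin, the oxygen-binding protein of muscle (chr15:77015487-77050668, minus strand), was 23.3, 32.2 and 25.9 CPM in WT at 2 months, 5.40, 4.57 and 5.38 in WT at 12 months, 9.49, 10.9 and 10.9 in KO at 2 months and 3.65, 2.65 and 2.94 in KO at 12 months. For both, the highest group was 2-month WT and the lowest mean was in 12-month KO, with no overlap between the KO ages. Both fell with age in KO, Ckm by 1.19 ± 0.26 SE (limma adjusted p = 0.00128) and Mb by 1.61 ± 0.13 SE (adjusted p = 1.56e-07). At 12 months Mb was lower in KO than in WT (-0.66 ± 0.13 SE, limma adjusted p = 0.000527), and Ckm was not called (-0.06 ± 0.26 SE, adjusted p = 0.837). Under quantile scaling, edgeR and DESeq2, and without replicate 2 of 12-month KO, the sign of Ckm in that comparison was positive. Mb overlaps Apol6 on the opposite strand, and Mybph overlaps Adora1 likewise, at a mean of 1.19 and 1.63 CPM.

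Excitation is carried by the acetylcholine receptor at the nerve contact, the voltage sensor of the fibre membrane and the calcium release channel. Chrna1 encodes the receptor subunit that fetal and adult receptors share (chr2:73563281-73580338, minus strand). It was 38.6, 39.02 and 35.5 CPM in WT at 2 months, 14.5, 13.4 and 14.2 in WT at 12 months, 19.3, 19.7 and 19.1 in KO at 2 months and 28.5, 21.7 and 27.5 in KO at 12 months. Its falls were smaller than most, -1.40 ± 0.09 SE with age in WT (limma adjusted p = 1.7e-08) and -0.94 ± 0.09 SE for KO against WT at 2 months (adjusted p = 2.05e-05), and the 4 groups did not overlap. With age in KO it rose by 0.40 ± 0.09 SE (limma adjusted p = 0.00149). Its 200 upstream bases (RefSeq on GRCm38.p6, chr2:73580339-73580538, minus strand), shown because the window holds several E-boxes, are given with matches to the same motifs in capitals.
Chrna1: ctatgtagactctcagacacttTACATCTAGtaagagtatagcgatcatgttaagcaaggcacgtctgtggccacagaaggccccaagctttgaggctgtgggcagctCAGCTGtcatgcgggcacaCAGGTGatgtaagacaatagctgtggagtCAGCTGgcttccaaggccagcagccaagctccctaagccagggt
The matches are TACATCTAG at -178, CAGCTG at -92 and -44 and CAGGTG at -73. The first fits TANNNNTAG, in which N is any base, and its central bases CATC are not all A or T.

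Ryr1, the calcium release channel (chr7:29003340-29125151, minus strand), was 17.7, 26.6 and 20.3 CPM in WT at 2 months, 4.37, 4.21 and 3.55 in WT at 12 months, 4.03, 6.003 and 5.68 in KO at 2 months and 12.01, 6.87 and 11.1 in KO at 12 months. The KO ages were separate, and 2-month KO overlapped 12-month WT. Cacna1s, its voltage sensor (chr1:136052901-136119822, plus strand), was 16.1, 21.5 and 15.7 CPM in WT at 2 months, 2.97, 2.65 and 3.58 in WT at 12 months, 4.16, 4.86 and 4.78 in KO at 2 months and 6.399, 3.73 and 5.11 in KO at 12 months. The KO ages overlapped for Cacna1s, through replicate 2 of the older group. Ryr1 rose with age in KO (0.85 ± 0.20 SE, limma adjusted p = 0.0022) and Cacna1s was not called (0.10 ± 0.17 SE, adjusted p = 0.606). Both were higher in KO than in WT at 12 months, by 1.18 and 0.63 on the log2 scale (limma adjusted p = 0.000166 and 0.00496). Casq1, the calcium store protein of fast fibres, was 1.23 to 8.78 CPM over the libraries and rose with age in KO by 0.84 ± 0.13 SE (limma adjusted p = 9.9e-05).

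Of the lineage factors, Myog was 15.8, 24.2 and 21.2 CPM in WT at 2 months, 4.32, 4.57 and 4.69 in WT at 12 months, 4.35, 4.36 and 6.25 in KO at 2 months and 9.61, 5.01 and 8.29 in KO at 12 months (chr1:134290004-134292548, plus strand). It fell with age in WT by 2.04 ± 0.21 SE (limma adjusted p = 1.89e-06) and rose in KO by 0.54 ± 0.21 SE (adjusted p = 0.0356). Replicate 2 of 12-month KO lay within the range of 2-month KO for Myog. The rise of Myog was not called without replicate 1 or 3 of 12-month KO (0.36 and 0.46, limma adjusted p = 0.161 and 0.102), on leaving out replicate 1 or 2 of 2-month KO (0.46 each, adjusted p = 0.115 and 0.113), or without the filter on low genes (adjusted p = 0.0649). Myf5 (chr10:107482908-107486134, minus strand) was 1.62, 2.38 and 1.81 CPM in WT at 2 months, 0.111, 0.457 and 0.343 in WT at 12 months, 0.433, 0.432 and 0.463 in KO at 2 months and 1.86, 0.756 and 1.77 in KO at 12 months, with 2-month WT and 12-month KO overlapping. Myod1, at 0.466, 0.718 and 0.652 CPM in WT at 2 months, 0.222, 0.144 and 0.143 in WT at 12 months, 0.108, 0.130 and 0.0260 in KO at 2 months and 0.204, 0.0470 and 0.174 in KO at 12 months (chr7:46376474-46379092, plus strand), was low throughout, with 1 to 35 reads. Fitted without the filter, Myod1 was lower with age in WT (-0.73, limma adjusted p = 0.000235) and in KO at 2 months (-0.92, adjusted p = 0.000444). In the same fit it was called neither with age in KO (0.12, limma adjusted p = 0.415) nor for KO against WT at 12 months (-0.07, adjusted p = 0.651). Pax7 had 0 to 4 reads in any library, and a count of 0 allows up to 3 reads.

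Beyond the 36 members, 112 other muscle genes on lists of related function were examined, of which 88 passed the filter. With age in WT 7 rose and 69 fell, where 22.3% of all genes rose and 35.6% fell, and with age in KO 42 rose and 10 fell, where 32.9% rose and 34.2% fell. At 2 months 0 were higher in KO and 70 were lower (1.86% and 14.2% of all genes), and at 12 months 53 were higher and 15 lower (31.3% and 38.9%). Their median log2 changes in these comparisons were -1.40, 0.32, -1.08 and 0.48, where those of all genes were -0.08, -0.02, -0.09 and -0.07.

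Among sarcomere partners, the M-band protein Myom2 was 35.8 ± 5.298 CPM (SD, n = 3) in WT at 2 months, 6.13 ± 0.399 in WT at 12 months, 10.3 ± 0.6199 in KO at 2 months and 21.3 ± 4.899 in KO at 12 months. Myom1 and Unc45b (a myosin chaperone) also fell with age in WT, by 1.66 and 1.96, and rose with age in KO by 0.87 and 0.73. The most abundant of the thin filament and Z disc list differed: Tpm2, a tropomyosin also made by smooth muscle, fell with age in both genotypes (-0.65 and -1.17), and so did Flnc, a filamin (-0.76 and -0.25). Pdlim3 and Fbxo32, a ubiquitin ligase of muscle atrophy, rose with age in both (0.95 and 1.03, 1.17 and 0.37). These 4 genes are also used outside skeletal muscle.

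Among calcium-handling genes, the pump Atp2a1 changed by -2.35 ± 0.16 SE with age in WT and by 0.77 ± 0.16 SE in KO (limma adjusted p = 3.81e-08 and 0.00101). Casq2 changed by -2.22 and 0.72, both called, and Srl and Tmem38a, by -2.08 and -0.51 in WT, were not called in KO. At the nerve contact, Chrng, the fetal receptor subunit, had 29 to 276 reads per library and Chrne, the adult subunit that replaces it, had 0 to 13. Chrng fell with age in WT by 1.73 ± 0.19 SE and rose in KO by 0.64 ± 0.19 SE (limma adjusted p = 4.42e-06 and 0.0101). Chrnb1, a subunit also made outside muscle, went the other way in WT, with a rise of 1.94 ± 0.08 SE (limma adjusted p = 1.66e-10). Rapsn, which clusters the receptors, rose with age in both genotypes (0.81 and 0.65), and the receptor kinase Musk fell in WT and rose in KO (-0.61 and 0.65).

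The most abundant of the regulator list are also made outside muscle. Megf10, a satellite cell receptor, fell with age in both genotypes (-1.06 and -1.69). The factor Mef2a and the receptor Cdon fell in WT (-0.21 and -0.29) and rose in KO (0.19 and 0.32), and Mef2c fell in WT (-1.38) and was not called in KO (0.15). Mymk (listed as Tmem8c), which fuses myoblasts, fell with age in WT by 1.64 ± 0.19 SE and rose in KO by 0.62 ± 0.19 SE (limma adjusted p = 5.03e-06 and 0.00988). Its partner Mymx (listed as Gm7325) had group means of 0.805, 0.168, 0.217 and 0.489 CPM (WT at 2 and 12 months, then KO likewise) and was below the filter. Myf6, a late factor, fell with age in WT (-1.69 ± 0.19 SE) and was not called in KO (0.25 ± 0.19 SE, limma adjusted p = 0.273). The early lineage gene Pax3 had 0 to 18 reads and the muscle growth inhibitor Mstn 0 to 4. In the membrane list Dmd, which other cell types also make, was not called with age in WT and rose in KO by 1.38 ± 0.12 SE (limma adjusted p = 3.13e-07), while Cav3 and Dysf fell in WT by 2.22 and 0.39. Of the energy list, Eno3 fell in WT by 2.15 and was not called in KO, and Pfkm and Adssl1 fell with age in both (-0.63 and -0.38, -0.40 and -1.09). Phka1 was called in neither (-0.05 and -0.03).

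Motif counts were made in 250 bases upstream of the 36 RefSeq start sites of the 31 members found in the promoter table, and of all 32851 start sites. CAGCTG was in 16 of the 36 (44.4%, against 13.0% of all), CTANNNNTA or TANNNNTAG in 16 (44.4% against 19.0%), CAGGTG or CACCTG in 9 (25% against 17.2%) and the CArG box in 3 (8.33% against 1.47%). Each was searched on both strands, and overlaps between motifs were kept. Promoters of genes that share a family are not independent, and the shares carry no test.

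**Figure D5:**
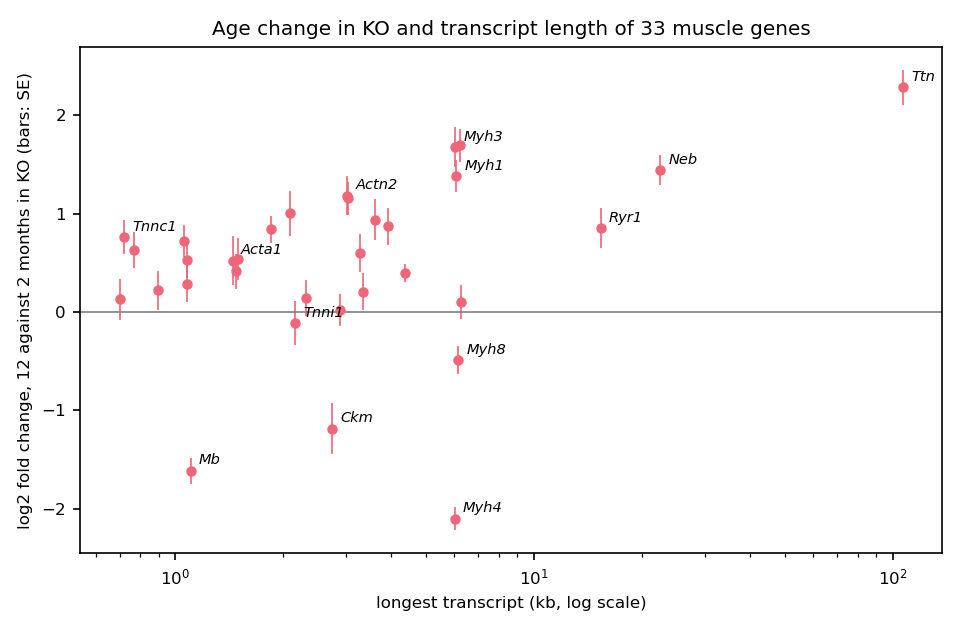
Transcript length in kilobases (log axis) against the log2 change with age in KO for the 33 tested members, with bars for the SE from limma. Ttn, the longest, has the largest rise, while Myh4 and Myh8, about as long as Myh3 and Myh1, lie below 0.

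Change with age in KO went with transcript length over genes generally and among the members. Members over 5 kb (9 genes) had a median of 1.38, against 0.22 for all genes of that length, those of 1.5 to 5 kb (13 genes) 0.60 against -0.05, and those under 1.5 kb (11 genes) 0.52 against -0.30. Spearman's rho over genes was 0.32 for the 33 members and 0.26 for all 13159, as a description without a p, since genes share the libraries. Among the 9 members over 5 kb 6 rose and 2 fell, the latter being Myh4 and Myh8. Over all genes of any length 32.9% rose and 34.2% fell, and the shares among genes over 5 kb were not counted. With age in WT the medians were -2.29, -2.20 and -2.41 in the 3 classes, and rho over the members was 0.13. Length also went with the genotype comparison at 12 months and the interaction over all genes. There rho was 0.20 and 0.22 over all genes, and 0.11 over the members in each. Over all genes it was 0.02 for age in WT and -0.10 for genotype at 2 months. The part of length or RNA quality in any of these comparisons was not tested.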

How the data were processed

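RNA of 12 libraries was measured, 3 in each of 4 groups taken from the labels' genotype and age. Per the submitters' processing notes, reads were handled with TopHat2 2.1.0, Bowtie2 2.2.4, SAMtools 0.1.18 and HTSeq 0.6.1p1 on mm10. For the annotation, the strand setting and reads with several matches, the method is not given in the sources used here. Libraries were TruSeq Stranded total RNA per the labels' protocols. The deposited signal values are TMM-normalised CPM from edgeR, per the file headers. Division by the CPM of 1 read gave whole reads (100% within 0.1) for totals of 31845169 to 109079737, with intervals and floors covering counting error only.

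The 36 members, the role lists and the other lists were chosen with earlier results of these data known. A model of the 4 groups was fitted in limma 3.58.1 (R 4.3.3) with a trend to log2(CPM + 0.5), for the 13961 genes whose mean reached 0.5 CPM, and gave 5 comparisons with 8 residual degrees of freedom. Adjusted p-values are Benjamini-Hochberg per comparison over all genes. Ratios within libraries were compared by exact permutation. Alternatives were pseudocounts of 0.1 and 1, no filter or a mean of 2 CPM, TMM over all 12 libraries, quantile scaling, edgeR 4.0.16 and DESeq2 1.42.0 on recovered reads, a replicate block and leaving out each library. TMM over all 12 libraries moved the log2 values by a mean of -0.04 and 0.03 in WT at 2 and 12 months and 0.05 in KO at either age. Simulated data were used to test the fit.

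Values in every library are given for members of a developmental or adult pair and for the up to 3 most abundant of each role, the rest by range. From each other list, the up to 4 most abundant genes and Chrng, Chrne, Myf6, Mymk, Mymx, Pax3 and Mstn were named, except that some are not reported here. Starts deposited in the table count from 0, and 1 was added. Transcript lengths are those of the longest GENCODE vM21 transcript. The level of a log2 ratio per length depends on that choice, while its differences between groups do not. Of the 36 members, 31 matched the RefSeq promoter table.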

Additional observations from a re-analysis of the deposited data

Results flagged for a closer look

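The change with age differed between KO and WT for 32 of the 33 tested members by the interaction term of limma at an adjusted p under 0.05. The interaction is the age change in KO minus that in WT, on the log2 scale. Among heavy chains, light chains and binding proteins it was Myh3 5.01, Mybpc1 3.72, Myh1 3.23, Mylpf 3.04, Myl1 2.91, Myl4 2.85, Myh8 2.48, Mybph 2.32, Myh7 2.29 and Mybpc2 2.201. For the thin filament and its troponins it was Actc1 3.41, Tnnt3 3.09, Acta1 2.96, Tnnc2 2.66, Tnnc1 2.61, Tnni2 2.59, Tnnt1 2.35, Tnni1 2.21 and Tnnt2 2.07. For the scaffolds and the Z disc it was Ttn 4.58, Actn2 3.85, Neb 3.76, Des 2.98 and Actn3 2.40, and for the energy genes Ckm 1.36 and Mb 0.68. For excitation it was Ryr1 3.12, Casq1 3.04, Cacna1s 2.45 and Chrna1 1.80, and for the lineage factors Myf5 2.61 and Myog 2.58. Positive calls of this kind made up 31.4% of all genes tested.

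For the log2 ratio of Tnnt2 to Tnnt3, every 12-month WT library lay above every 2-month WT library, and every 12-month KO library below every 2-month KO library. The age difference in KO minus that in WT was -1.04, and this difference was not tested.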

How the results depend on the processing

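Counts of called members stayed within 1.5 times the count in every alternative run. Over the fits that left out 1 library, called members were 33 to 33 for age in WT, 20 to 29 for age in KO, 33 to 33 for genotype at 2 months, 29 to 32 for genotype at 12 months and 32 to 32 for the interaction. The count of 29 for age in KO came without replicate 2 of 12-month KO. Shares of all genes called in these fits are not given here. The 18 same-numbered pairs of libraries correlated between -0.16 and 0.59, with a median of 0.09 against -0.06 for pairs of different numbers. Of the 12 libraries, 6 correlated best with a library of their own number. These values do not decide whether the replicate numbers pair the libraries. With the number as a replicate block the counts were 33, 23, 33, 31 and 32, the same as without it. Quantile scaling moved the median of all genes at 2 months by 0.11 on the log2 scale, and no other scaling moved it by over 0.1.

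Results near 0 changed sign, and the cause was not tested. With a pseudocount of 1 the Myh4 interaction was 0.22. The genotype difference of Ckm at 12 months was 0.18 under quantile scaling, 0.0873 with edgeR and 0.0702 with DESeq2. Over the fits that left out 1 library, the Myh4 interaction ran from -0.15 to 0.0412 and Ckm at 12 months from -0.33 to 0.16. In the same fits the age change in KO ran from -0.13 to 0.19 for Actn3, from -0.0035 to 0.48 for Tnnt2, from -0.30 to 0.18 for Tnni1, from -0.0441 to 0.49 for Tnni2, from -0.0337 to 0.45 for Tnnc2, from -0.0474 to 0.34 for Mybph and from -0.0638 to 0.29 for Cacna1s. The ratio of Actc1 to Acta1 ran from -0.28 to 0.20 for age in KO and from -0.32 to 0.0105 for genotype at 2 months. The ratio of Tnni1 to Tnni2 ran from -0.0366 to 0.17 for age in WT, and that of Tnnc1 to Tnnc2 from -0.0162 to 0.22 for genotype at 12 months. Tnni1 at 12 months passed the test in quantile scaling, edgeR and DESeq2 (0.85, 0.64 and 0.66). Low depth limits Myh2, Myod1 and Pax7, and also Myh7, with 3 to 212 reads per library.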
